A study of Mus musculus with 6 samples.

Results

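Mouse fallopian tube (oviduct) organoids that carried Apc580D together with Trp53 loss were compared before they were inoculated under the skin and after regrowth, as organoids, from the lesion that formed, whose histology label was cyst. The first culture is called the source and the second the cyst-derived culture. They are 2 of the 6 cultures of the series, with 1 one-colour array each. The comparison is the cyst-derived minus the source level of every gene that either array measured well above background. This held for 14888 of the 23787 genes with a named probe, and no measured difference was used to choose them. The members of the comparison and the 47 gene lists used below were chosen with earlier results of these data known. The other 4 cultures, given beside some values, were Trp53flox/flox organoids carrying the vector pLKO.1 (control), organoids with Trp53 loss alone, and Pik3caH1047R with Trp53 loss before inoculation and as organoids from an adenocarcinoma. Both cultures of the Apc/Trp53 pair share the allele Apc580D and the loss of Trp53, and the tissue of all 6 is labelled as female. Per the labels all were grown without serum with EGF, Noggin, R-spondin1, Jagged-1, the kinase inhibitor Y27632 and the GSK3 inhibitor CHIR-99021. Each group is 1 culture, and the labels do not say whether a culture was clonal or pooled, nor what the host animal was.

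Fallopian tube organoids are hollow spheres of oviduct epithelium, which holds secretory cells and multiciliated cells. Apc is the scaffold of the complex that marks beta-catenin for destruction. Where it fails, beta-catenin enters the nucleus with TCF and LEF factors and turns on target genes, several of which encode feedback inhibitors of Wnt signalling itself. Trp53 encodes p53, a transcription factor that halts division or triggers cell death after damage.

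Levels below are log2 intensities minus the 75th percentile of the array, so a level of 0 is a bright probe. The lowest signal well above background was at -4.88 on the source array and -4.69 on the cyst-derived array, and between -4.57 and -4.17 on the others. A difference is given in log2 units or as a fold, and genes were counted at a difference of at least 1 log2 unit (2-fold). With 1 array in each group no difference has a replicate check, a test or a p-value, and every count is a statement on these 2 arrays. Probes of the same gene differed by a median SD of 0.13 log2 units over 5400 genes with several probes, and copies of 1 probe by 0.0389 to 0.081 per array, which covers technical error only. The share of probes well above background was 49.9% in the source and 51% in the cyst-derived culture, and 45.4% to 48.7% on the other arrays. The arrays shared 1 slide and 1 scan. Both source arrays lay in slide row 1 and both arrays grown from lesions in row 2, so row and inoculation cannot be told apart.

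The labels were checked on the targeted genes and on lineage markers. The single Trp53 probe was at 0.89 in control and at -3.57 in the source, where it was 22-fold lower. It was not well above background in the cyst-derived culture, with control at least 47.9-fold higher. The Apc probe lay between -4.6 and -3.66 on the 6 arrays, close to background, and since the sources used here do not place it relative to the altered exon, it checks nothing. All 12 measured epithelial markers were above background on both arrays, with Epcam at 3.5 and 3.99 and the simple-epithelium keratin Krt18 at 7.89 and 7.63 in source and cyst-derived culture. The oviduct factors Pax8, Sox17 and Emx2 were also above background on both. Of 12 fibroblast markers only 3 were measured. Col1a1, Col1a2, Col3a1, Dcn and Lum were not above background on either array, while the growth factor receptor genes Pdgfra and Pdgfrb were above it in the cyst-derived culture and not in its source (at least 7.79-fold and 1.73-fold higher).

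**Figure D1:**
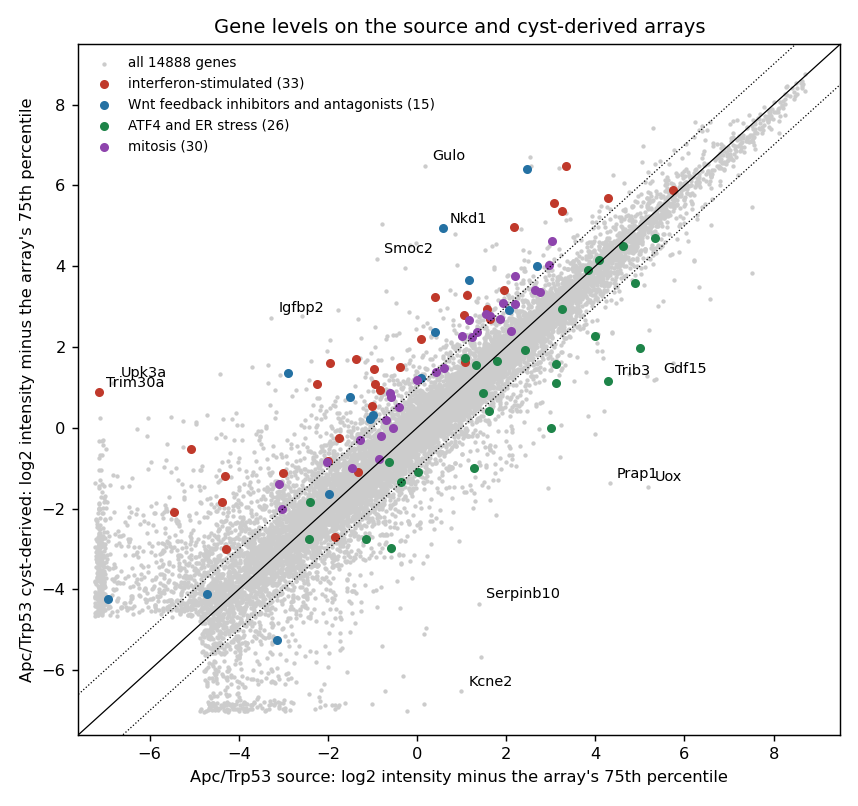
Level of each of the 14888 genes on the source array (horizontal axis) and the cyst-derived array (vertical axis), in log2 intensity minus the 75th percentile of the array, with 1 array per culture. The solid line marks equal levels and the dotted lines a 2-fold difference. Most interferon-stimulated, Wnt feedback and mitosis genes lie above the solid line and most ATF4 and ER stress genes at or below it.

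Of the 14888 genes, 1683 (11.3%) were higher by 2-fold or more in the cyst-derived culture and 1197 (8.04%) were lower. The median gene differed by -0.03, with quartiles of -0.37 and 0.35. Large differences leaned upwards, with 404 genes higher by 8-fold or more and 144 lower. Among the 13039 genes above background on both arrays, 884 were higher and 744 lower. A further 742 genes were above background in the cyst-derived culture only and 527 in the source only. The balance of the calls depends on the scaling. With each array's median in place of its 75th percentile, all values shifted by -0.33 and the counts became 1251 higher and 2055 lower, so 37.8% instead of 58.4% of the calls were higher. Differences are best read against the median gene, and lists with a median near 0 have no direction of their own. Each list count below is to be read beside the shares of 11.3% higher and 8.04% lower over all genes.

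The largest increase of a named gene that both arrays measured above background was that of Gulo, which encodes the enzyme of the last step of vitamin C synthesis. Its level was 0.17 in the source and 6.49 in the cyst-derived culture (79.7-fold), against 0.11 in control. Igfbp2, an IGF-binding protein, went from -3.28 to 2.72 (64-fold), and Ephx2, the soluble epoxide hydrolase, from -0.79 to 5.05 (57.4-fold). The next largest increases were secreted proteins and surface receptors. The gene of the cartilage and melanoma protein Mia was 40.6-fold higher, Cd83, known from dendritic cells, 36.8-fold, and the matrix protein gene Smoc2 34.2-fold over 2 probes (SD 0.05). The kainate receptor subunit gene Grik4 was 32.7-fold higher, Cthrc1 29.6-fold, the protease inhibitor gene Spink8 25.8-fold, Pdgfrl 25.7-fold and Bpifb5 24.1-fold. Cyp26b1, whose product degrades retinoic acid, was 23.9-fold higher.

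Genes seen in the cyst-derived culture only have a lower bound of the fold, computed against the lowest signal well above background on the source array. The largest bounds were those of the urothelial membrane gene Upk3a (at least 63.8-fold), the antiviral gene Trim30a (54.1-fold), Cpsf4l (32.9-fold), the carbonic anhydrase gene Car4 (32.7-fold), Cstad (31.5-fold), the neuropeptide gene Adcyap1 (28.7-fold), Ascl4 (23.8-fold) and Cd163l1 (23.5-fold). Upk3a, Car4, Ascl4 and Cd163l1 were not well above background on any of the other 5 arrays.

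The largest decrease was that of Uox, the urate oxidase, which stood at 5.71 in control, 5.98 with Trp53 loss, 5.17 in the source and -1.46 in the cyst-derived culture (99.1-fold lower). Serpinb10, a protease inhibitor gene, went from 1.39 to -4.36 (53.7-fold lower). Prap1, which encodes a secreted proline-rich epithelial protein, went from 4.32 to -1.37 (51.6-fold lower). The stress cytokine gene Gdf15 was 17.6-fold lower, the lipase inhibitor gene Angptl8 15.4-fold and Ifitm6 14.6-fold. All 5 measured alpha-1-antitrypsin genes (Serpina1a, Serpina1b, Serpina1c, Serpina1d and Serpina1e) were 15.3-fold to 21.8-fold lower. They are near-identical copies whose probes may read each other's transcripts, so the 5 values are not separate measurements.

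Genes seen in the source only included several of ion and water transport. Kcnj1, a potassium channel gene, was at least 69.3-fold lower in the cyst-derived culture, the channel subunit gene Kcne2 at least 51.6-fold and the water channel gene Aqp3 at least 20.7-fold. The calcium-binding protein gene Pvalb (29.6-fold), the X-linked genes Xlr3b (28.8-fold) and Xlr4b (22-fold over 2 probes, SD 2.4), the glycosyltransferase gene Galnt6 (28.6-fold) and the G protein subunit gene Gnai1 (15.8-fold) were lower by at least these amounts.

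Interferons bind surface receptors and act through transcription factors that bind a promoter element, the interferon-stimulated response element, and turn on antiviral genes. Of 33 measured interferon-stimulated genes, 29 were at least 2-fold higher and 0 lower in the cyst-derived culture, with a median difference of 2.05 beside -0.03 for all genes. The antiviral modifier gene Isg15 was at 3.34 in the source and 6.48 in the cyst-derived culture (8.83-fold higher), against 2.26 in control and 2.05 with Trp53 loss. In the Pik3ca/Trp53 pair it was already at 6.09 before inoculation and at 5.66 after. Ifit1, whose product binds foreign RNA, was at -2.30 in control, -2.49 with Trp53 loss, 1.02 and 1.19 in the Pik3ca/Trp53 pair, -1.95 in the source and 1.60 in the cyst-derived culture (11.7-fold). Thus both genes were low on the control, Trp53 loss and Apc/Trp53 source arrays and high on the other 3. The same order held for the list: its median level was -0.99 in control, -1.22 with Trp53 loss, 1.26 and 1.47 in the Pik3ca/Trp53 pair, -0.95 in the source and 1.51 in the cyst-derived culture.

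Sensors, mediators and effectors of the response were among the higher genes. The RNA sensor genes Ddx58 (RIG-I) and Ifih1 (MDA5) were 2.82-fold and 2.93-fold higher, and the mediator genes Irf7 and Irf9 7.12-fold and 2.08-fold. Ddx60 was at least 17.6-fold and Herc6 at least 6.93-fold higher. Stat2 differed by 0.23, Oasl1 by 0.56 and Bst2, which tethers budding viruses, by 0.14. The chemokine gene Cxcl10 went the other way, at -0.87. The interferon genes Ifnb1, Ifna4 and Ifng were not well above background on any array. Of 12 measured interferon-induced GTPase genes, which encode proteins that attack the membranes around intracellular microbes, 11 were higher and 1 lower (median 2.08). Gbp3 was 8.24-fold, Gbp7 6.06-fold and Irgm2 5.19-fold higher, Gbp5 at least 5-fold, and Gvin1 was 2.04-fold lower. The genes of one GTPase family are close copies, so single values are uncertain.

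Stretches of 6 promoters are shown. They belong to the genes of each interferon list with the largest differences among those above background on both arrays. Only genes with a response element ahead of the start site were taken, so the match is a condition of the choice. The stretches are RefSeq sequences (GRCm38.p6), 5′ to 3′ on the strand of the gene. Each match to the response element is in capitals, searched on both strands as GAAA, any 2 bases and GAAA again.
Ifit1: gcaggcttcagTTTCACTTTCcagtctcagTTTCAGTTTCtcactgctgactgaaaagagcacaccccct
Ifit3: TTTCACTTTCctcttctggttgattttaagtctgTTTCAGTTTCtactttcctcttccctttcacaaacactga
Isg15: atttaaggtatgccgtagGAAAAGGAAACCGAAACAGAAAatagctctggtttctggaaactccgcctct
Gbp3: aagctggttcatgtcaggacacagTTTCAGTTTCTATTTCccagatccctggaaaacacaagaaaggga
Gbp7: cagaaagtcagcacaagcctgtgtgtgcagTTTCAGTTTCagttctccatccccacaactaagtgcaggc
Irgm2: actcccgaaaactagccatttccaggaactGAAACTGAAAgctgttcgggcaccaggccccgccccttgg

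The stretches lie at chr19:34640774-34640843 (+ strand) for Ifit1, chr19:34583373-34583446 (+) for Ifit3, chr4:156200845-156200914 (-) for Isg15, chr3:142559975-142560043 (+) for Gbp3, chr3:142530253-142530322 (+) for Gbp7 and chr11:58214883-58214952 (+) for Irgm2. All are upstream of the annotated start of the gene. Isg15 has 3 overlapping matches, and the match nearest to the start site begins 66 bases before it. Over the 300-base windows of the RefSeq table (250 bases before to 50 after the start), 13 of 24 measured interferon-stimulated genes with a window (54.2%) held a match. Of those at least 2-fold higher it was 10 of 20 (50%), so the match was not more frequent among them. For the GTPase genes it was 7 of 8 (87.5%), for antigen presentation genes 3 of 13 (23.1%) and 1 of 9 of those at least 2-fold higher (11.1%), and for all 11806 measured genes with a window it was 3.58%. Over all 27025 genes with a window it was 3.99%. A match is a description of the letters and not a bound site.

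**Figure D2:**
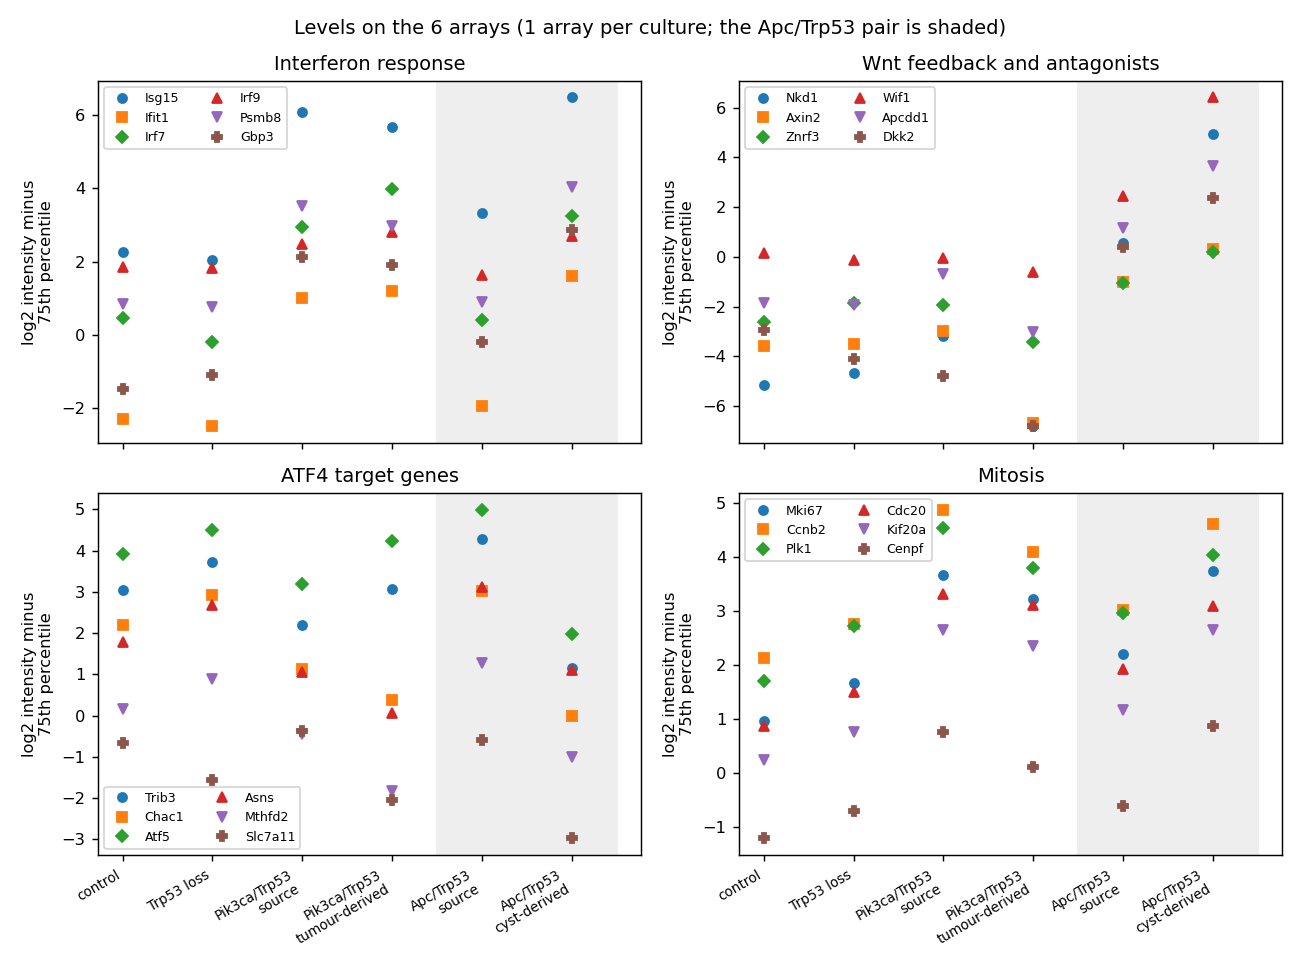
Levels of 24 genes on the 6 arrays in 4 panels, in log2 intensity minus the 75th percentile of the array, 1 point per gene and array, with the Apc/Trp53 pair on grey. Interferon and mitosis genes of the cyst-derived culture reach the range of the Pik3ca/Trp53 cultures, Wnt feedback genes are highest in the cyst-derived culture, and all 6 ATF4 target genes are lower in the cyst-derived culture than in its source.

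Genes of antigen presentation were higher as well. Of 18 measured, 13 were at least 2-fold higher and 0 lower (median 1.36). The immunoproteasome subunit genes Psmb8 and Psmb9, which cut proteins into peptides for MHC class I, were 8.69-fold and 6.78-fold higher. The peptide transporter genes Tap1 and Tap2 were 4.06-fold and 5.27-fold higher and the class I activator gene Nlrc5 3.26-fold. The class I chain H2-K1 was 2.22-fold higher over 2 probes (SD 0.01), while H2-D1 and B2m differed by 0.79 and 0.83. Among class II genes, H2-Ab1 was at least 4.99-fold and the invariant chain gene Cd74 3.6-fold higher, while the class II activator gene Ciita differed by -0.45. Leukocyte markers were read beside these genes, since immune cells also express them. Of 22 leukocyte probes, 8 were above background in the source and 9 in the cyst-derived culture. Of the 15 markers, 8 were not above background on either array, among them Adgre1, Lyz2, Cd79a, Tyrobp, S100a8, S100a9 and Cd52. For the leukocyte gene Ptprc, 1 of 2 probes was above background, in the cyst-derived culture only (level -3.10, at least 3.44-fold higher). The macrophage marker Cd68 and the leukocyte marker Laptm5 were 4.53-fold and at least 3.3-fold lower, and the median of the 7 measured markers differed by 0.23. Fewer cells of a type and less RNA per cell cannot be told apart in bulk RNA. A part of leukocytes in the interferon and antigen presentation values was not tested.

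Wnt feedback inhibitors and antagonists, which cells make in response to the pathway or which block it outside the cell, were higher as well. Of 15 measured genes, 11 were at least 2-fold higher and 1 lower, with a median of 1.31. With median scaling or normexp background correction 7 stayed 2-fold higher. Nkd1, an intracellular inhibitor that the pathway induces, was at -5.13 in control and -4.66 with Trp53 loss, not well above background in either, and at 0.58 in the source and 4.95 in the cyst-derived culture (20.7-fold). The scaffold gene Axin2 was at -3.59, -3.52, -0.99 and 0.31 in the same order (2.47-fold over 2 probes, SD 0.06). So both genes were high in the source against control and higher again in the cyst-derived culture. The ubiquitin ligase genes Znrf3 and Rnf43, which remove Wnt receptors, were 2.39-fold and 2.48-fold higher. The secreted antagonist genes Wif1, Dkk3 and Dkk2 were 15.4-fold, at least 14.4-fold and 3.87-fold higher, and the membrane inhibitor gene Apcdd1 5.6-fold over 3 probes (SD 0.05). The Wnt deacylase gene Notum differed by 0.87 and the R-spondin receptor gene Lgr5 by 0.84, both under 2-fold. Trabd2b, which encodes a Wnt-cleaving protease, was at least 2.49-fold lower. In the Pik3ca/Trp53 pair the same list had a median of -0.84, with 4 higher and 7 lower of 14, beside 14.1% of all genes higher and 11.3% lower in that pair.

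Other parts of the Wnt pathway did not share that shift. Of 22 measured transcription factors and growth genes known as Wnt targets, 5 were higher and 3 lower (median 0.21). Tcf7l2 was 3.46-fold, Sp5 2.81-fold and Lef1 2.67-fold higher, while Fgf9 was 6.03-fold and Myc 2.05-fold lower. Of the 16 genes of the destruction complex and beta-catenin, 0 were 2-fold apart in either direction (median 0.07). Among Wnt ligands and receptors 7 of 30 were higher and 6 lower. Wnt6 was 12.3-fold higher and the receptor gene Ror1 at least 14.3-fold higher, while Wnt7b was 2.38-fold and Wnt11 2.51-fold lower. The TCF site CTTTGAT, searched on both strands, was in 1 of 9 promoter windows of the measured feedback genes and in 3.29% of those of all measured genes.

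Mitosis genes were higher, while DNA replication genes were less than 2-fold apart. All 30 measured mitosis genes had a difference above 0, and 16 were at least 2-fold higher (median 1.01). With median scaling, which moves all values by -0.33, the median was 0.68 and 6 of the 30 were 2-fold higher. The cell cycle marker gene Mki67 was at 2.2 in the source and 3.75 in the cyst-derived culture (2.92-fold), against 0.96 in control. Cyclin B2 (Ccnb2) was 3-fold, the spindle motor Kif20a 2.81-fold, the kinase Plk1 2.11-fold and the checkpoint activator Cdc20 2.23-fold higher. Foxm1, the transcription factor of many mitosis genes, was 3.25-fold higher as measured, with a lower bound of 1.99-fold. Cyclin B1 (Ccnb1), on chromosome 13, differed by 0.08. Of 26 replication genes, 0 were 2-fold apart in either direction (median 0.05), from -0.50 for Mcm2 to 0.98 for the thymidine kinase gene Tk1. Cyclin D2 (Ccnd2) was 6.42-fold higher over 2 probes (SD 0.01), and the CDK inhibitor gene Cdkn2d 2.2-fold higher.

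ATF4 is a transcription factor that cells make when amino acids run short or the endoplasmic reticulum (ER) is stressed, and it turns on genes of amino acid synthesis and import. Of 26 measured genes of ATF4 and ER stress, 12 were at least 2-fold lower and 0 higher in the cyst-derived culture (median -0.82). Trib3, a pseudokinase induced by ATF4, was at 3.06 in control, 3.73 with Trp53 loss, 2.2 and 3.06 in the Pik3ca/Trp53 pair, 4.28 in the source and 1.16 in the cyst-derived culture (8.68-fold lower). The cyst-derived culture thus had the lowest and its source the highest of the 6 levels. The factor Atf5 was 8.11-fold, the glutathione-degrading enzyme Chac1 8.09-fold, the cystine transporter Slc7a11 5.24-fold, the folate enzyme Mthfd2 4.82-fold and asparagine synthetase (Asns) 4.05-fold lower. Atf4 itself was 2.5-fold lower over 2 probes (SD 0.03) and Ddit3, which encodes CHOP, 2.18-fold. The ER protein genes Hspa5, Creld2 and Pdia4 of the list stayed near 0 (-0.12, 0.07 and 0.22), as did the transcription factor gene Xbp1 (0.08).

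Promoters of 3 of the lower genes are shown that hold the ATF4 composite site, searched as TGATGNAA on both strands. The site is in capitals in RefSeq stretches (GRCm38.p6) that end at or before the start site. Genes without a site ahead of the start were passed over, so here too the match is a condition of the choice. It describes the letters and not a bound site.
Chac1: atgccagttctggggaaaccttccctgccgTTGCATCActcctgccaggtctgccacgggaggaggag
Slc7a11: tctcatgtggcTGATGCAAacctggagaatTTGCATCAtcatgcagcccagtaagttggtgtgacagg
Asns: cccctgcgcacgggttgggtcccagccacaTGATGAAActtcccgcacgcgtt

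They lie at chr2:119351019-119351086 (+) for Chac1, chr3:50443623-50443690 (-) for Slc7a11 and chr6:7693210-7693262 (-) for Asns. Slc7a11 holds 2 matches in opposite directions. Of 24 measured list genes with a window, 7 (29.2%) held the site, and of the 12 lower ones 6 did. Among all 11806 measured genes with a window the share was 2.91%, and over all 27025 it was 4.51%.

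Genes that ERK and YAP induce were lower more often than higher. ERK is the last kinase of the pathway from EGF receptors, and YAP is a coactivator that responds to cell shape and contact. Of 21 measured ERK-induced genes, 10 were lower and 1 higher (median -0.77), and 5 were lower with normexp background correction. The AP-1 factor gene Fosl1 was at least 6.03-fold lower, Egr1 3.83-fold, the receptor gene Epha2 3.07-fold and the phosphatase gene Dusp4 2.58-fold. Etv5, an ETS factor gene, was 2.22-fold higher while its relatives Etv1 and Etv4 were 2.26-fold and 2.15-fold lower. The EGF receptor gene Egfr was at least 2.25-fold lower over 3 probes, and of its ligand genes Hbegf differed by -0.77, Areg was at least 1.63-fold lower and Egf was 2.95-fold higher, close to background. With dim signals at the background limit, 1 of the 3 lower genes of the 12 EGF receptor family and ligand genes stayed past 2-fold. Of 23 YAP target genes, 9 were lower and 3 higher (median -0.69). Ankrd1 was at least 5.35-fold, Ccn2 4.05-fold, Ccn1 2.9-fold and Amotl2 2.64-fold lower, and Fstl1 was 10.9-fold higher. Ccn2 was at 6.77 in control, 6.44 with Trp53 loss, 4.36 in the source and 2.35 in the cyst-derived culture, the lowest of the 6 arrays.

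Chemokines and cytokines were lower, in contrast with the interferon genes. Of 25 measured, 13 were at least 2-fold lower and 1 higher (median -1.05). Of the 19 above background on both arrays, 8 were lower and 1 higher. With dim signals at the background limit, 10 of the 25 were lower. The neutrophil attractants Cxcl2 and Cxcl5 were at least 5.72-fold and 5.27-fold lower and Cxcl1 3.34-fold. Interleukin 1 alpha (Il1a) was at least 3.56-fold and its natural antagonist Il1rn 4.54-fold lower, and the colony-stimulating factor gene Csf3 5.27-fold. Cxcl17, a mucosal chemokine, was at 3.30 in control, 1.30 in the source and -1.81 in the cyst-derived culture (8.66-fold lower). Cxcl15 was the 1 member that was higher (7.44-fold). Of 22 acute phase, alarmin and complement genes, 5 were lower and 1 higher. Lactoferrin (Ltf) went from 6.57 to 3.18 (10.5-fold lower), and the complement component C3 from 7.53 to 5.46 (4.18-fold lower). The adhesion gene Vcam1 was 3.8-fold higher.

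Among 34 measured p53 target genes 5 were lower and 1 higher (median -0.30), and 11 were lower with median scaling. Beside Gdf15, the AKT inhibitor gene Phlda3 was 4.62-fold, Gadd45a 3.03-fold and Plk3 2.52-fold lower, and Ckap2, also a mitosis gene, was 2.52-fold higher. Phlda3 was at 5.24 in control, 1.35 with Trp53 loss, 1.75 in the source and -0.46 in the cyst-derived culture. The main cell cycle target Cdkn1a (p21) had 2 probes that disagreed (mean difference -0.84, SD 2.07), and the p53 ligase gene Mdm2 differed by -0.18.

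**Figure D3:**
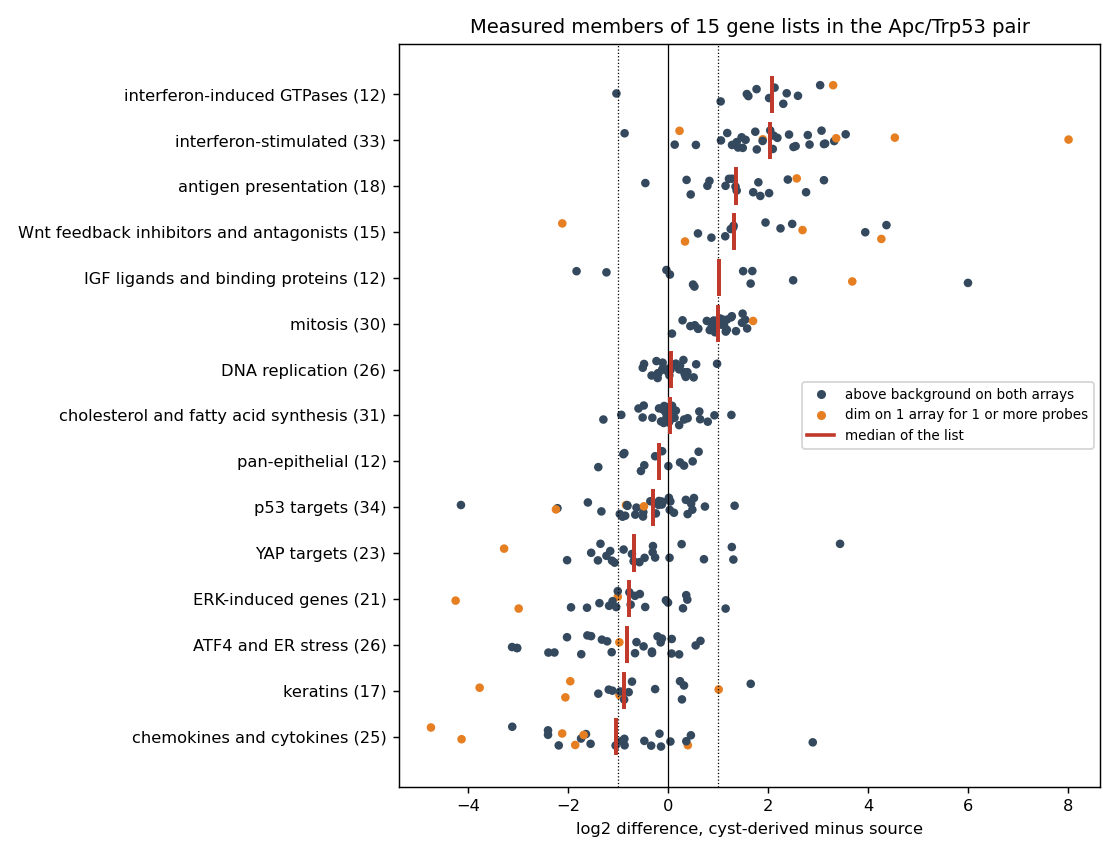
Log2 difference (cyst-derived minus source, horizontal axis) of every measured member of 15 gene lists, 1 point per gene, with the number of genes in brackets and the list median as a red bar. Dotted lines mark a 2-fold difference. The interferon lists have the highest medians (2.08 and 2.05), and chemokines and cytokines the lowest (-1.05).

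Keratins, the intermediate filaments of epithelia, were lower in 6 of 17 and higher in 2 (median -0.88). The count of lower keratins was 11 with median scaling and 1 with normexp background correction. Krt7, of simple epithelia, was 2.63-fold lower (4.47 in the source and 3.08 in the cyst-derived culture). The basal keratin Krt5 was above background in the source only (at least 3.28-fold lower), and Krt23 was 3.15-fold higher. For 21 squamous markers the median over 16 measured was -0.64, and with probes above background on both arrays only it was 0.035, so the list gives no direction. Of 29 claudin and junction genes, 6 were lower and 2 higher (median -0.33).

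The identity of oviduct secretory cells was mixed. Of 15 measured markers, 5 were higher and 4 lower (median 0.16). The oviduct glycoprotein gene Ovgp1 was 2.19-fold, the homeobox gene Msx1 2.49-fold and the peptidase gene Anpep 2.54-fold higher, while Cldn10 was 2.67-fold and C3 4.18-fold lower. Pax8, Sox17 and Emx2 differed by 0.06, 0.16 and 0.26. Among 21 Müllerian factors and hormone receptors, 4 were higher and 1 lower. The progesterone receptor gene Pgr was 2.45-fold and the cofactor gene Dach1 3.2-fold higher. For multiciliated cells 25 of 38 markers were measured, 4 higher and 7 lower (median 0.23). Of the 16 above background on both arrays 2 were higher and 1 lower. The ciliogenesis factor Foxj1 was 2.96-fold higher but low, at -2.62 and -1.05, against 0.08 in control. Ccno, on chromosome 13, which drives centriole amplification, was at least 8.48-fold lower. Of 13 mucous genes of the gut type, 5 were higher and 2 lower. Tff2 was above background in the cyst-derived culture only (at least 10.8-fold higher), Gkn3 7.52-fold and villin (Vil1) 6.72-fold higher, and Clca1 3.1-fold and Agr2 2.2-fold lower.

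Among stem cell genes, 4 of 19 were higher and 4 lower. Smoc2 and Aldh1a1 (18-fold) had the largest increases, Tnfrsf19 was 4.76-fold and Kit 2.68-fold higher, and Procr was 4.49-fold and Klf4 2.62-fold lower. Aldh1a1 also belongs to the retinoid genes, where its product makes retinoic acid, and it was at 1.00 in control, -1.89 with Trp53 loss, 2.54 in the source and 6.70 in the cyst-derived culture. Of 14 retinoid genes 5 were higher and 3 lower (median 0.10). Dhrs3, which returns retinal to retinol, was at least 26.3-fold higher, and Cyp26a1 was 6.41-fold lower while Cyp26b1 was higher as given above. Among 12 IGF ligand and binding protein genes 6 were higher and 2 lower (median 1.02). With probes above background on all 6 arrays 2 were higher, with a median of 0.50. The ligand Igf1 was 2.84-fold, Igfbp4 3.15-fold and Igfbp5 3.22-fold higher, and Igfbp3 2.35-fold lower.

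Of 24 genes of TGF-beta and BMP, 3 were higher and 3 lower (median -0.01), beside 11.3% and 8.04% of all genes. The BMP target Id3 was 14.6-fold and the ligand Bmp7 4.75-fold higher, while Tgfb2 and Tgfb3 were 2.23-fold and 2.18-fold lower. Mesenchymal genes had a median of 1.07 over 17 measured, with 9 higher and 3 lower, but only 10 were above background on both arrays. With dim signals set to the background limit the median was 0.67. The matrix protein gene Sparc was at least 7.51-fold higher. Snai2 and Prrx1 were above background in the cyst-derived culture only, with bounds of 1.33-fold and 1.4-fold. The 3 lower mesenchymal genes were the transcription factor gene Zeb2 (-2.42 as measured), Mylk and Tgfb2. Of 13 measured collagen genes 6 were higher and 3 lower, and of the 8 above background on both arrays 4 were higher and 1 lower. The basement membrane chains Col4a1 and Col4a2 were 17.4-fold and 12.2-fold higher. The 3 lower collagen genes were Col4a6, also a type IV chain (-3.15 as measured), Col6a3 and Col7a1. The laminin chain Lama1 was 10.8-fold higher, but of 22 measured integrin and laminin genes 4 were higher and 2 lower (median -0.07). Of 10 endothelial markers, 6 were measured, all on both arrays, and their median level was -0.50 in the source and 0.53 in the cyst-derived culture. Esam, Vwf and Egfl7 were 2.99-fold, 2.81-fold and 2.02-fold higher, the endothelial cadherin gene Cdh5 was 5.34-fold lower, and Tek, Tie1, Emcn and Cldn5 were not above background on either array. The muscle genes Myog and Ckm were above background in the cyst-derived culture only, at least 7.95-fold and 13.7-fold higher. The other skeletal muscle markers measured were not 2-fold apart. A part of other cell types in these values was not tested.

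Metabolic lists barely differed. Of 31 cholesterol and fatty acid synthesis genes, 1 was higher and 1 lower (median 0.04). Of 32 glycolysis and hypoxia genes, 1 was higher and 1 lower (median 0.25), the glucose transporter Slc2a3 (5.36-fold higher) and the phosphofructokinase Pfkp (2.32-fold lower). Pfkp lies on chromosome 13. Of 29 glutathione and NRF2 genes, 1 was higher and 2 lower, among them the quinone reductase Nqo1 (at least 7.85-fold lower).

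Genes of chromosome 13 were lower as a group. The grouping by chromosome was made after the values were seen. Of 555 measured genes on it, 157 (28.3%) were at least 2-fold lower and 36 (6.49%) higher. The median was -0.71, with quartiles of -1.05 and -0.14, and 79.6% of the genes were below 0. On the other 19 chromosomes the medians lay between -0.08 and 0.05 and 4.55% to 11% of the genes were lower. Chromosome 13 held 13.1% of all lower genes, and without it 1647 genes were higher and 1040 lower of 14333. Of its 10-Mb intervals, 11 had at least 20 genes, and their medians ran from -1.03 to -0.59, except for one of -0.12. That interval holds 33 histone genes with a median of 0.04, and its other genes had a median of -0.66. The median was thus below 0 in each of these 11 intervals. Without the background filter the median of the chromosome was -0.10. The median of all genes ran from -0.36 to 0.14 over the alternatives other than the deposited table. In the authors' deposited value table, which holds 28 of its genes, the median of the chromosome was 0.089. The column medians of that table were -0.198 for the cyst-derived culture and -0.322 for the source.

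The shift appeared between the 2 arrays of the pair. Relative to control, the median of chromosome 13 genes above background on all 6 arrays was 0.02 with Trp53 loss, 0.07 in the source and -0.69 in the cyst-derived culture. In the Pik3ca/Trp53 pair the median of chromosome 13 genes was -0.23, within the range of the other chromosomes there (-0.30 to 0.25). The largest decreases among genes above background on both arrays were those of the steroid enzyme Akr1c18 (8.73-fold, chr13:4132615-4150646), the tubulin gene Tubb2b (5.06-fold, chr13:34127008-34130354) and the semaphorin gene Sema4d (4.74-fold, chr13:51685529-51793678), in GRCm38.p6. Some genes there were higher, among them Cd83 and Fgfr4 (3.62-fold). None of the 47 gene lists had more than 3 measured members on chromosome 13. Outside these lists, Tcstv3, B020031M17Rik, BC147527 and AF067061, named below with the 2-cell stage genes, lie on it too. Their differences were 2.94, 1.85, 0.76 and 4.43, the last above background in the cyst-derived culture only. DNA was not analysed here.

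**Figure D4:**
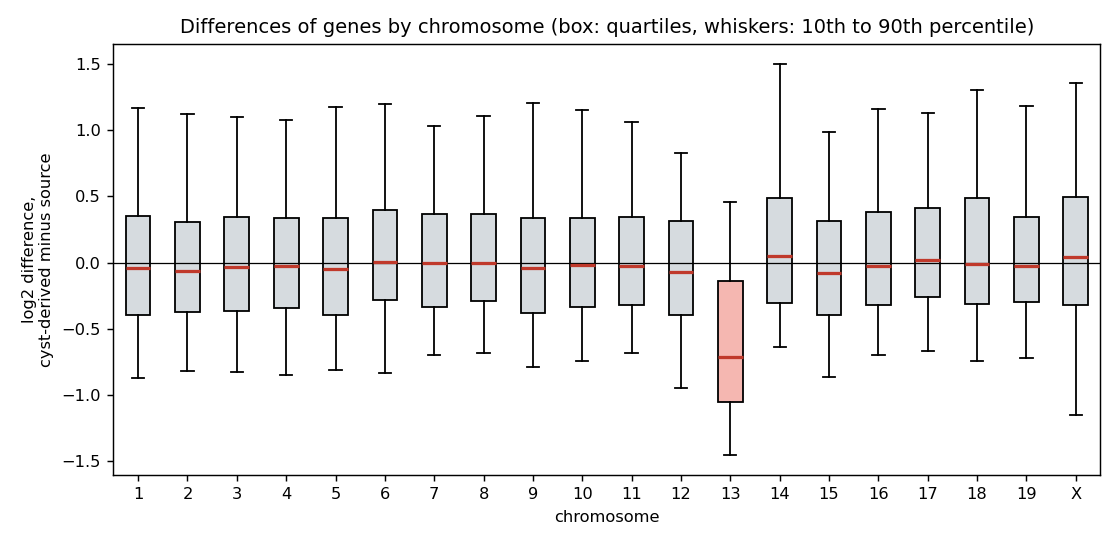
Log2 difference (cyst-derived minus source, vertical axis) of the measured genes of each chromosome, as boxes with the median in red, quartiles, and whiskers at the 10th and 90th percentiles. Chromosome 13 (pink) has a median of -0.71, and the other 19 medians lie between -0.08 and 0.05.

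The Pik3ca/Trp53 pair, which shares no array with the Apc/Trp53 pair, gives the same contrast of inoculation for another genotype. Of 14727 genes, 2082 were higher and 1658 lower in its tumour-derived culture. Over the 13932 genes measured in both pairs, 8.42% were higher by 2-fold or more and 7.54% lower in the Apc/Trp53 pair, and 10.8% and 10.9% in the other. Higher in both were 317 genes, which is 27% of the genes higher in the Apc/Trp53 pair and 21.1% of those higher in the other. Another 163 were lower in both, 15.5% and 10.7% of the lower genes. In opposite directions, 336 genes were higher in the Apc/Trp53 pair and lower in the other, which is 28.6% and 22.1% of the genes called so, and 362 were the reverse, 34.5% and 24.1%. All of these shares, in the same and in opposite directions, were above the shares over all common genes. Pearson's r across these genes was -0.07, a description over genes that share arrays. A difference between the pairs cannot be tested with 1 array per group.

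Some lists had medians of opposite sign in the pairs. ERK-induced genes had a median of -0.77 in the Apc/Trp53 pair and 1.52 in the Pik3ca/Trp53 pair, keratins -0.88 and 1.59, YAP targets -0.69 and 0.84, and chemokines and cytokines -1.05 and 0.95. Mesenchymal genes had positive medians in both (1.07 and 3.32), as did IGF genes (1.02 and 1.21). Gulo, 79.7-fold higher in the Apc/Trp53 pair, differed by -7.55 in the other. Pdgfrl differed by 4.69 in both.

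**Figure D5:**
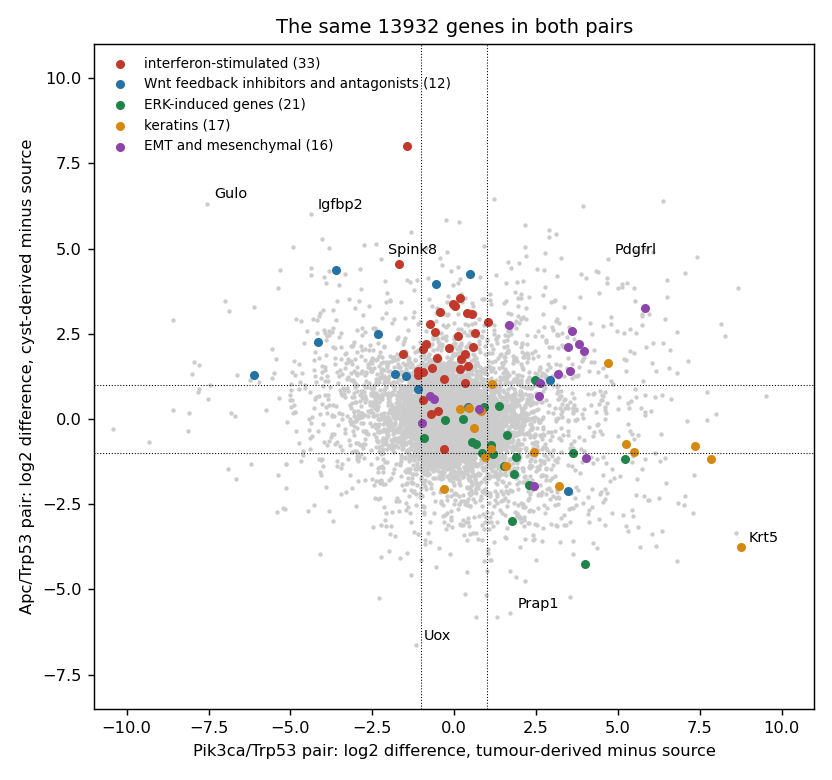
Log2 difference of the 13932 genes measured in both pairs, tumour-derived minus source in the Pik3ca/Trp53 pair (horizontal axis) and cyst-derived minus source in the Apc/Trp53 pair (vertical axis), with 5 gene lists in colour and dotted lines at a 2-fold difference. Interferon-stimulated genes spread upwards near 0 on the horizontal axis, and keratin and ERK-induced genes lie mostly to the right and below 0.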

How the data were processed

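Total RNA of 6 cultures was hybridised to Agilent one-colour (Cy3) arrays, 1 per culture. In the authors' deposited scanner files each spot has an intensity after background subtraction, with flags for spots above background, saturated or outlying. The submitters' processing notes name Agilent Feature Extraction, version 11.0.1.1. No gene spot was saturated. The authors' deposited value table of 2047 probes, taken as log2 from the range of its values, served as an alternative. Its column medians lay between -0.322 and 0.151, and its scale, centring and choice of probes stay unknown. Control and outlier spots were dropped, and log2 intensity minus the array's 75th percentile was averaged per probe, then per gene over probes that either array of the pair measured well above background. Accessions matched to RefSeq named 34566 of 56605 probes. Where a gene was dim on 1 array, the dim signal was raised to the lowest signal well above background there, and the fold is given as "at least". Counts use signals as measured. The members of the comparison and the 47 gene lists were chosen with earlier results of these data known. Genes were named by rule: the 12 largest differences in each direction above background on both arrays, the 8 largest bounds in each direction, up to 4 per list and direction, defining members that did not move, the targeted genes and 6 Wnt feedback genes. Predicted genes, and those with probes that disagree in sign with an SD over 1, were not named by size. Alternatives changed the scaling (median, quantile, loess), background correction (normexp, offset 50, on median signals since the files hold no mean signal), filter, bounds, probe rule, outlier spots and source. The comparison was checked on simulated data. Tools were limma 3.58.1 in R 4.3.3, and pandas 2.3.3, numpy 2.4.6 and matplotlib 3.10.9 in Python 3.11.15. Some genes that the naming rule selects are not reported here.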

Additional observations from a re-analysis of the deposited data

Results flagged for a closer look

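The results below are those whose differences had opposite signs in the Apc/Trp53 pair and the Pik3ca/Trp53 pair, with 1 array per culture. None of these differences between the pairs was tested. For lists of at least 10 measured genes with medians of at least 0.5 in size in both pairs, the medians were 1.31 and -0.84 for Wnt feedback inhibitors and antagonists, 1.01 and -0.51 for mitosis, and 2.08 and -0.53 for interferon-induced GTPases (Apc/Trp53 pair first). Lists with a negative median in the Apc/Trp53 pair were ERK-induced genes (-0.77 and 1.52), YAP targets (-0.69 and 0.84), chemokines and cytokines (-1.05 and 0.95), FGF ligands and receptors (-0.59 and 1.19), keratins (-0.88 and 1.59) and squamous markers (-0.64 and 1.14). The FGF and squamous lists have no settled direction in the Apc/Trp53 pair. Of the 11 FGF genes 3 were higher and 3 lower, with a median of 0.12 without the background filter, and the squamous median was 0.035 with probes above background on both arrays.

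Among the genes with the largest differences, Gulo was at 6.32 and -7.55, Igfbp2 at 6 and at least 4.24 lower (-4.24), Grik4 at 5.03 and at least 2.76 lower (-2.76), and Spink8 at 4.69 and -2.24. Prap1 was at -5.69 and 1.71. The alpha-1-antitrypsin genes, which may share probes, were at -4.44 and 1.01 (Serpina1d), -4.14 and 1.1 (Serpina1a), -4.13 and 1.11 (Serpina1e) and -3.94 and 1.02 (Serpina1b).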

How the results depend on the processing

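No paired analysis was possible because each group has 1 array and the labels give no shared replicate numbers. The main counts were 1683 genes higher and 1197 lower. They became 657 and 545 with normexp background correction. The filter for probes above background on both arrays left 979 higher genes, and the filter on all 6 arrays left 680 higher and 755 lower. Median scaling gave 2055 lower genes, and the deposited value table, with 772 of the genes, 272 higher and 211 lower. Under the other alternatives the counts stayed within 1.5 times. The 40 genes with the largest differences or bounds stayed at least 2-fold apart in the same direction under every alternative in which they were measured. They were picked as the most extreme on the same 2 arrays, so this is a weak check. Those seen on 1 array only were not measured under the filters on both or on all 6 arrays. Of 20 lists with a median of at least 0.5 in size, 16 kept its sign under all alternatives. The others reversed, FGF ligands and receptors to 0.12 and mesothelium to 0.22 without a filter, skeletal muscle to -0.16 with the filter on all 6 arrays, and squamous markers to 0.035 with the filter on both. The median of chromosome 13 genes ran from -1.04 to -0.10, the latter without a filter, and was 0.089 in the deposited table, which holds 28 of them. That of all genes ran from -0.36 to 0.14 over the alternatives other than the deposited table. The alternatives without chromosome 13, and all of those for the Pik3ca/Trp53 pair, were chosen after seeing the data. With 1 array per culture, the precision of all values is limited by the number of arrays.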

Other observations

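The gene groups in this part were chosen after their values were seen and are given as values. Of 18 probed genes known from the 2-cell stage of the mouse embryo, 7 were above background in the cyst-derived culture and not in its source, 4 on both arrays and 7 on neither. The first 7 were measured only through the array on which they are high, so their direction is fixed by the filter. Of the 4 on both arrays, Tcstv3 and B020031M17Rik were 7.69-fold and 3.6-fold higher, BC147527 differed by 0.76 and Zfp352 by -0.28. The telomere-associated Zscan4 genes Zscan4a, Zscan4b, Zscan4c and Zscan4f were at least 3.41-fold, 6.22-fold, 3.78-fold and 5.92-fold higher, with levels of -3.11 to -2.24 there. Of these 4 genes, Zscan4b was above background on 1 other array, the Pik3ca/Trp53 source, and the rest on none. They are close copies whose probes may read each other. Tdpoz1, which was also above background in control, was at least 14.2-fold, AF067061 at least 4.5-fold and Usp17la at least 2-fold higher. Tcstv3 was at -3.45 in the source and -0.51 in the cyst-derived culture, below its 0.30 in the Pik3ca/Trp53 source. Tcstv1, Tdpoz3, Tdpoz4, Usp17lb, Usp17lc, Usp17ld and Usp17le were not above background on any array.

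The implantation protease genes Prss28 and Prss29 were above background in the Apc/Trp53 cultures alone among the 6 arrays. Prss29 was at 2.55 in the source and 6.47 in the cyst-derived culture (15.1-fold), and Prss28 was at least 17.9-fold higher. Of 6 measured BPI-fold genes of airway and mucosal secretions, 3 were higher, Bpifb5 as given above, Bpifb1 at least 21.1-fold and Bpifb9b at least 6.79-fold. Bpifb1 and Bpifb9b were measured only through the cyst-derived array, so their direction is fixed by the filter. Of the 3 on both arrays, Bpifb5 was higher, while Bpifa1 differed by 0.03 and Bpifc by -0.11. The late cornified envelope genes Lce3b, Lce3c and Lce3d, also close copies, were 6.48-fold, 7.79-fold and 6.62-fold lower. Of 8 aquaporin genes, 5 were lower and 2 higher. Aqp8 went from 7.51 in the source to 3.84 (12.8-fold lower), and Aqp11 was 2.38-fold higher.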
